A study of Homo sapiens with 6 samples.

Results

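The genes described here are the AP-1 and immediate-early genes FOS, FOSB, FOSL1, FOSL2, JUN, JUNB, JUND, ATF3 and EGR1. They were chosen by symbol from the 28307 symbols of the deposited gene tables, and all 9 passed the filter of a mean abundance of at least 1 TPM (a transcript's share of all RNA, scaled to 1000000, a level per transcript length), as did 13300 genes in all. The libraries came from SW480, an established human colon adenocarcinoma line, into which a gene had been introduced by lentivirus with antibiotic selection. Control cells carried pLENTI CMV Clover, a fluorescent protein (3 libraries), and the others carried pLENTI CMV Z18trunc, a truncated form of the nuclear RNA surveillance factor ZC3H18 (3 libraries). In both groups the CMV promoter drove the introduced gene, and both groups carried a lentiviral vector and had passed through selection. The question put to these genes was whether their polyadenylated RNA differed between Z18trunc and Clover cells.

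AP-1 is a family of dimeric transcription factors. Jun proteins pair with each other or with Fos proteins through a leucine zipper and bind the sequence TGACTCA or the related TGACGTCA. In many cells the genes are transcribed within minutes of growth factor or stress signals passing through MAP kinases, and several of the transcripts are short-lived because AU-rich elements in their 3′ untranslated regions recruit decay factors. In intestinal epithelium and its tumours, AP-1 is known as an output of the RAS to ERK pathway and of stress kinases.

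Aligned fragments ranged from 18226033 to 22463310 per library, and the mean read depth over the exons ranged from 125 (FOSL2) to 1755 (EGR1) among the 6 members whose coverage could be compared across libraries. The introduced gene served as the check of the labels. ZC3H18 stood at 57.2 ± 5.39 TPM in the Clover libraries and at 763 ± 31.2 TPM in the Z18trunc libraries (SD, n = 3 each). Its log2 change was 3.72 (limma adjusted p = 3.2e-05). The deposited table sums the endogenous and introduced transcripts for this gene. Epithelial markers were present, with KRT8 between 9394 and 10116 TPM and CDX2 between 41.8 and 49.6 TPM in all 6 libraries, while LGR5, a stem cell marker, was listed at 0. Of 13 markers of melanocytes, leukocytes, fibroblasts, endothelium and hepatocytes, 11 had values under 1 TPM, and MLANA, TYR, PTPRC and PECAM1 were listed at 0. The melanocyte marker PMEL measured 1.42 to 3.60 TPM and the fibroblast marker COL1A1 1.14 to 1.55 TPM. The summed level of the 13 markers ranged from 3.27 to 4.70 TPM in Clover and from 3.29 to 5.50 TPM in Z18trunc. Clover replicate 2 stood apart, since its median absolute log2 difference from another library was 0.164 to 0.277, against 0.0964 to 0.191 among pairs without it.

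Some of the elements known to switch such genes on lie close to the start. The 250 bases before the start site of EGR1, FOS, JUN and JUND are therefore shown. They came from RefSeq on build GRCh38.p14, and these start sites equal those in the deposited tables. They are given 5′ to 3′ on the strand of the gene, with searched motifs in capitals. EGR1 lies on chr5:138465229-138465478 (plus strand), FOS on chr14:75278578-75278827 (plus strand), JUN on chr1:58784048-58784297 (minus strand) and JUND on chr19:18281623-18281872 (minus strand).
EGR1: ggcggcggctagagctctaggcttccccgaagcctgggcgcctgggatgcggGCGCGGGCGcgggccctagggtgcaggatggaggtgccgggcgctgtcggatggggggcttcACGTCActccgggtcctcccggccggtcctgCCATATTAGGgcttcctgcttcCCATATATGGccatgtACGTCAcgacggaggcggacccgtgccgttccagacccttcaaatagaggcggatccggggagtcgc
FOS: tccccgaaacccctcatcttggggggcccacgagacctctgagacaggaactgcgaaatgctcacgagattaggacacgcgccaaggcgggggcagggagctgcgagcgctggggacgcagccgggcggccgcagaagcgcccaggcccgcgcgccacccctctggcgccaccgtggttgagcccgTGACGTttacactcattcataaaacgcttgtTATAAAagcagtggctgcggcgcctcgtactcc
JUN: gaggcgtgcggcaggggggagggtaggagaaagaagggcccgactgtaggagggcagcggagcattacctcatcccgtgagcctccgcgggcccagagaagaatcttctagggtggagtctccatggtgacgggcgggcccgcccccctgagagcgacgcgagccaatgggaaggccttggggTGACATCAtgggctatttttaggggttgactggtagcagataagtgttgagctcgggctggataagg
JUND: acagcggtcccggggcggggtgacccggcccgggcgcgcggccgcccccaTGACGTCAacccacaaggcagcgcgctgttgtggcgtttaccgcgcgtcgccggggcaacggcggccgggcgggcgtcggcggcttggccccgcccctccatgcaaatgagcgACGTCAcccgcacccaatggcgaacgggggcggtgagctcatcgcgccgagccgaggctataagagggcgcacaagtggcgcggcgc
The capitals mark the CArG box bound by SRF, GCGNGGGCG bound by EGR proteins, TGACGTCA, TGACATCA, the AP-1 consensus TGACTCA, the shorter element TGACGT and the TATA box TATAAA. All were searched on both strands except TATAAA, which was read on the strand of the gene, and each TGACGTCA also contains TGACGT on both strands. EGR1 held a pair of CArG boxes beginning at positions -105 and -83 from the start site, and TGACGT read on the opposite strand at -136 and -67. FOS held TGACGT at -64 and TATAAA at -33. JUN held TGACATCA at -67, the variant AP-1 site known from this promoter, and JUND held TGACGTCA at -200 and a further TGACGT on the opposite strand at -87. FOSB (-60) and FOSL2 (-66) also held TGACGT, and FOSB and JUNB held TATAAA at -30 and -31. ATF3 was searched at start sites that differ from the deposited one, and held TGACATCA at -123 or TATAAA at -230. Neither site was the start of its MANE Select transcript, and the bases before that start were not searched. No window was available for FOSL1, which was not searched. Of 35116 such windows of all genes, 1.16% held a CArG box, 7.10% TGACGT, 1.65% TGACGTCA, 2.37% TGACATCA, 4.20% TGACTCA, 8.41% GCGNGGGCG and 6.80% TATAAA. A match describes letters in the window and does not show that a factor was bound. Elements further upstream than 250 bases were not searched, so a motif absent here may lie outside the window.

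The 9 genes differed widely in level. Mean TPM over the 6 libraries was 628 for EGR1, the 224th of the 13300 genes tested, then 245 for FOSL1, 240 for FOS, 152 for JUND, 146 for JUNB, 132 for JUN, 73.3 for FOSL2, 30.5 for ATF3 and 23.7 for FOSB. The ranges over libraries overlapped between FOSL1 and FOS, where FOSL1 was higher in 3 of 6 libraries, between JUND and JUNB (JUND higher in 5 of 6) and between ATF3 and FOSB (ATF3 higher in 5 of 6). JUNB was above JUN in 6 of 6 libraries, though the lowest JUNB value (141 TPM) was close to the highest JUN value (140 TPM). FOSL1 exceeded FOSB by a wide margin, so the Fos family in these cells consisted mainly of FOS (37.4% to 43.4% of its summed TPM in each library) and FOSL1 (39.3% to 45.9%). FOSL2 took 9.81% to 14.1% and FOSB 3.66% to 4.50%. The Jun family was divided more evenly, with JUN at 26.5% to 32.5%, JUNB at 33.3% to 35.1% and JUND at 33.1% to 38.4%. Summed Fos TPM ranged from 546 to 618 and summed Jun TPM from 423 to 445, so that the ratio of Fos to Jun lay between 1.27 and 1.42.

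**Figure D1:**
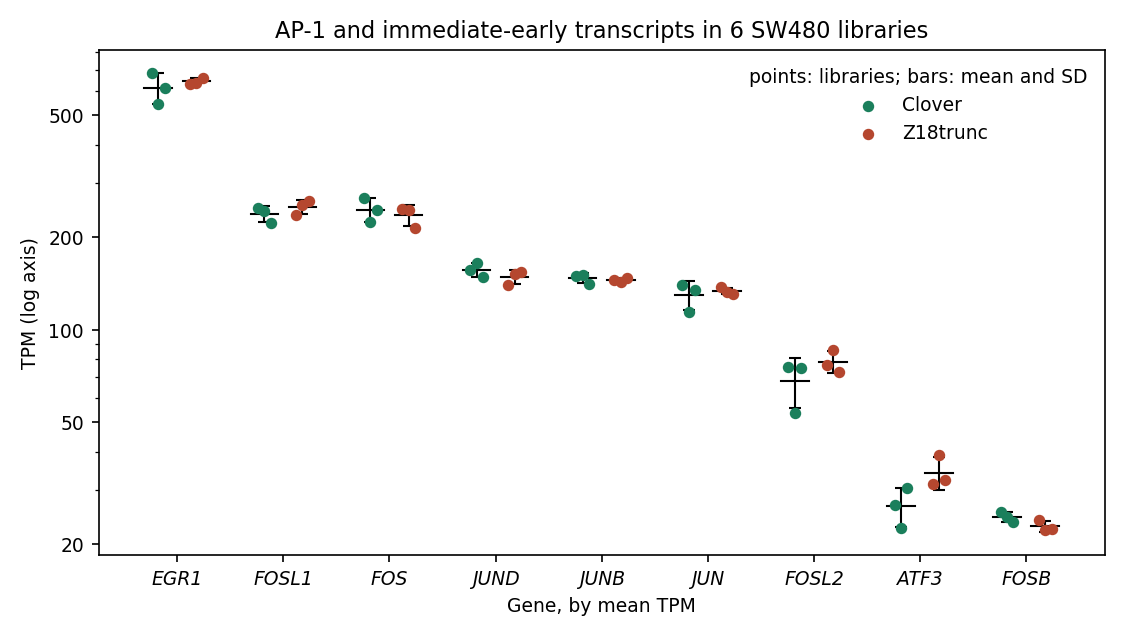
TPM on a log axis for each of the 9 genes in 3 Clover libraries (green) and 3 Z18trunc libraries (red), with bars for the mean and SD of each group. Only the points of ATF3 do not overlap between the groups, and the other 8 genes have overlapping points.

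JUN encodes c-Jun, the founding Jun protein and a target of the JNK kinases. JUN measured 140, 114 and 135 TPM in Clover replicates 1, 2 and 3 and 138, 133 and 131 TPM in Z18trunc replicates 1, 2 and 3. The groups overlapped, Clover replicate 2 being lowest of all, and the log2 change was 0.05 (95% interval -0.18 to 0.28, limma adjusted p = 0.76). JUNB encodes a Jun protein that often restrains c-Jun, and it measured 149, 151 and 141 TPM in Clover and 145, 143 and 148 TPM in Z18trunc. Its values overlapped, and its log2 change was -0.02 (95% interval -0.18 to 0.14, limma adjusted p = 0.88). JUND, the Jun gene that is commonly expressed without stimulation, measured 156, 165 and 149 TPM in Clover and 140, 151 and 154 TPM in Z18trunc. These ranges overlapped as well, with a log2 change of -0.08 (95% interval -0.26 to 0.11, limma adjusted p = 0.56).

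FOS encodes c-Fos, the partner that is induced fastest in many cells. FOS measured 268, 224 and 244 TPM in Clover and 247, 245 and 214 TPM in Z18trunc. The lowest value was a Z18trunc library and the highest a Clover library, and the log2 change was -0.06 (95% interval -0.30 to 0.18, limma adjusted p = 0.72). FOSL1 encodes FRA-1, a Fos protein that ERK signalling stabilizes in carcinoma cells. It measured 248, 244 and 222 TPM in Clover and 236, 255 and 262 TPM in Z18trunc. The groups overlapped and the log2 change was 0.08 (95% interval -0.11 to 0.27, limma adjusted p = 0.57). FOSL2 encodes FRA-2 and measured 75.7, 53.6 and 75.2 TPM in Clover and 76.8, 85.6 and 73.1 TPM in Z18trunc. Clover replicate 2 was far below the other Clover libraries, and the log2 change of 0.22 had a wide 95% interval of -0.14 to 0.57 (limma adjusted p = 0.38). FOSB, whose protein is related to c-Fos, measured 25.5, 24.6 and 23.6 TPM in Clover and 23.9, 22.3 and 22.4 TPM in Z18trunc. Its values lay close together with 1 overlapping library, and the log2 change was -0.10 (95% interval -0.27 to 0.07, limma adjusted p = 0.40).

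ATF3 encodes a stress-induced factor that pairs with Jun proteins, and it had the largest difference of the 9. It measured 26.8, 22.7 and 30.5 TPM in Clover and 31.3, 39.0 and 32.4 TPM in Z18trunc. All 3 Z18trunc values lay above all 3 Clover values, although Z18trunc replicate 1 was close to Clover replicate 3. On the linear scale the Z18trunc mean was 28.4% higher. The log2 change was 0.35 (95% interval 0.04 to 0.67) and did not pass the adjustment (limma adjusted p = 0.15). EGR1, a zinc-finger factor of the same signal-induced class that binds GC-rich sites, measured 683, 543 and 614 TPM in Clover and 632, 637 and 659 TPM in Z18trunc. Its Clover values spanned a wider range than its Z18trunc values, and the log2 change was 0.07 (95% interval -0.16 to 0.31, limma adjusted p = 0.66).

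None of the 9 genes was called by limma at an adjusted p under 0.05, where 0.015% of the 13300 genes were called, namely ZC3H18 and RGPD6, one of a family of close copies. Missing that threshold does not show that the groups act alike, and the intervals above give the sizes that remain compatible with the data. At an unadjusted p under 0.05, 1 of 9 was higher in Z18trunc (ATF3) and 0 of 9 lower, against 25.6% and 2.9% of all genes. The groups did not overlap for 1 of 9, which was higher, and for 0 of 9 that were lower, against 30.1% and 6.73% of all genes. The unadjusted call of ATF3 was lost after quantile normalization, after median centring and when Clover replicate 1 or 2 or Z18trunc replicate 2 or 3 was left out. After quantile normalization 0 of 9 were higher and 1 of 9 lower (FOSB), beside 1708 and 1448 of the 13300 genes. The log2 change of the median gene was 0.11, and the median over the 9 members was 0.05, which became 0.02 after quantile normalization, -0.11 after median centring and -0.01 without Clover replicate 2.

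Relative to the median gene, the difference was 0.25 for ATF3 and 0.11 for FOSL2 and between -0.20 (FOSB) and -0.03 (FOSL1, EGR1) for the other 7. Under quantile normalization and median centring of the libraries, in that order, ATF3 (0.24 and 0.19) and FOSL2 (0.14 and 0.05) stayed above 0, and FOS (-0.07 and -0.22), FOSB (-0.23 and -0.26), JUNB (-0.04 and -0.18) and JUND (-0.09 and -0.24) stayed below 0. FOSL1 (0.09 and -0.09), JUN (0.02 and -0.11) and EGR1 (0.11 and -0.09) turned from higher to lower under median centring. Median centring moves the log2 change of every gene by the same amount. At an unadjusted p under 0.05, 3404 genes lay higher and 386 lay lower, and these counts became 1708 and 1448 after quantile normalization and 1357 and 2460 after median centring, so the direction of a small change depends on the scaling. Under median centring, FOSB and JUND were lower at an unadjusted p under 0.05, with limma adjusted p = 0.13 and 0.16.

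**Figure D2:**
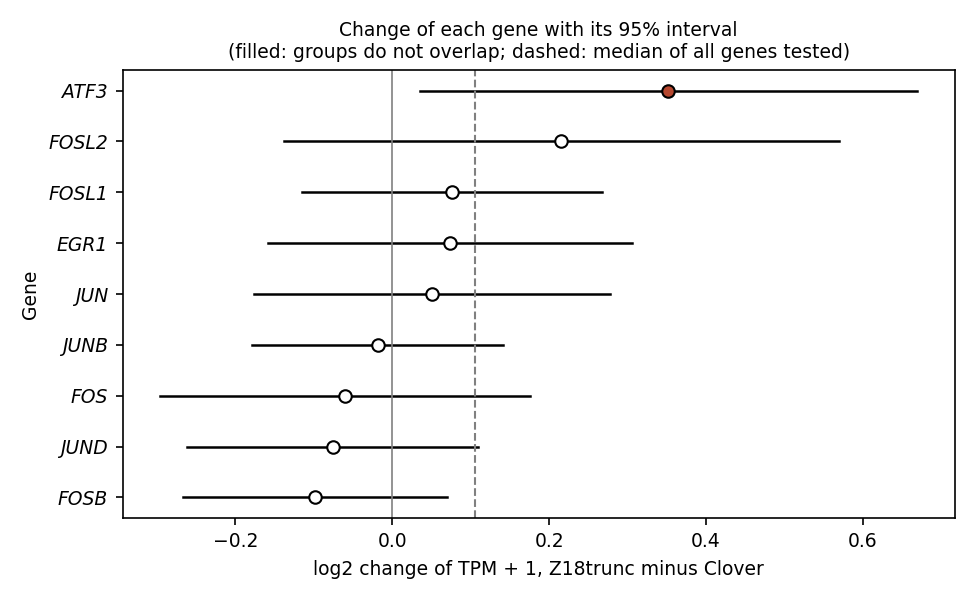
Log2 change of TPM + 1 in Z18trunc minus Clover for each gene with its 95% interval, with a dashed line at the median of all genes tested (0.11). ATF3 (0.35, filled) is the only gene whose groups do not overlap and whose interval lies above 0, and the intervals of the other 8 contain 0.

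The libraries did not order the members alike. Clover replicate 2 was the lowest Clover library for FOS, FOSL2, JUN, ATF3 and EGR1, and Clover replicate 1 the highest for 6 members. Without Clover replicate 2 the log2 changes of JUN, JUNB and EGR1 were -0.04, 0.00028 and -0.01, each with the opposite sign to that with all libraries. The SD between libraries of a group on the log2 scale was larger for FOSL2 than for 93.6% and for ATF3 than for 90.9% of the 5780 genes with a mean of at least 20 TPM. JUNB was at the other end, with a larger spread than 6.89% of them, and FOSB was at 17.1%. Leaving out Clover replicate 2 gave log2 changes for FOSL2 of 0.05 (limma adjusted p = 0.76) and for ATF3 of 0.24 (limma adjusted p = 0.30).

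**Figure D3:**
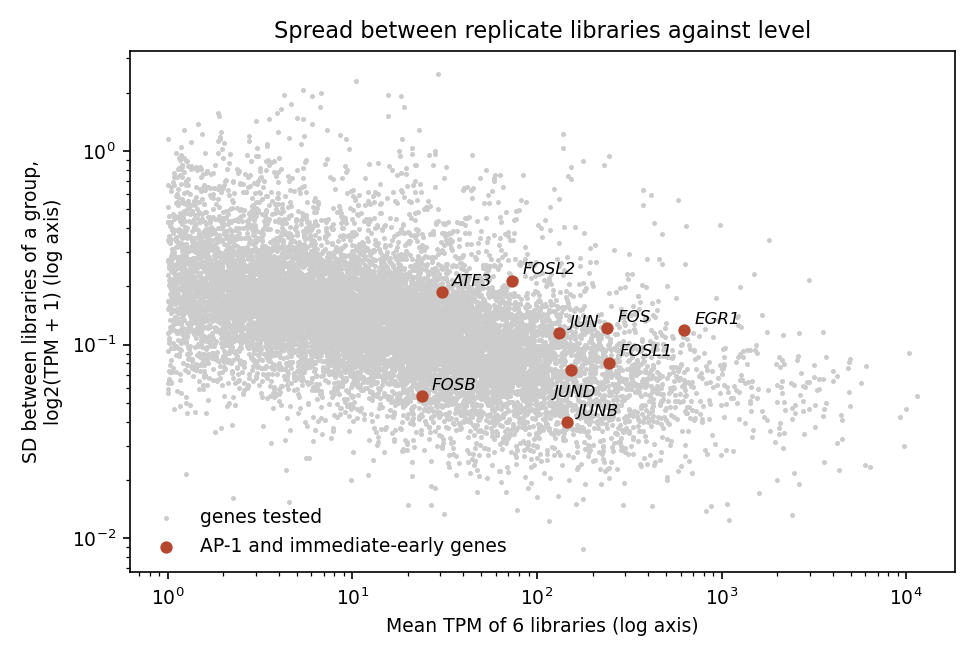
SD between libraries of a group on log2(TPM + 1), log axis, against mean TPM of 6 libraries, log axis, for the genes tested (grey) and the 9 members (red). FOSL2 and ATF3 sit high for their level, and JUNB and FOSB low.

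The 3′ untranslated regions of the MANE Select transcripts (GENCODE 44) differed in AUUUA, the core of AU-rich elements. FOS had 5 sites in 806 bases, a density above that of 94.6% of 18780 transcripts, and JUNB had 2 sites in 500 bases, above 84.3%. FOSL2 had 9 sites in 4869 bases, a density above 55.1%. FOS and FOSL2 each had 1 copy of UUAUUUAUU, which 8.60% of all transcripts held. ATF3, JUN and FOSB had 3 sites each, and EGR1, FOSL1 and JUND 1 each. The densities of these genes lay above those of 38% (EGR1) to 65% (ATF3) of transcripts. AUUUA itself was present in 68.3% of all transcripts.

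Genes of the same pathway were read from lists. Of 16 other AP-1 and related leucine zipper factors tested, limma called 0, and 4 had higher and 0 had lower values at an unadjusted p under 0.05, where 25.6% of all genes were higher and 2.9% lower. Without Clover replicate 2, 1 was higher and 0 were lower, beside 2580 and 395 of all 13329 genes. ATF2, a partner of Jun, measured 10.6 ± 1.38 and 14.1 ± 1.16 TPM in Clover and Z18trunc (SD, n = 3, log2 0.39, limma adjusted p = 0.092), and ATF1 and NFIL3 differed by 0.30 and 0.27. Of 26 other immediate-early genes, 5 had higher and 1 had lower values at an unadjusted p under 0.05, again beside 25.6% and 2.9% of all genes, and 0 were called. TIPARP measured 29.0 ± 4.59 and 40.0 ± 1.89 TPM (SD, n = 3, log2 0.46), with differences of 0.37 for MCL1, which encodes a survival protein, and 0.29 for BHLHE40.

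Upstream of the members, 8 of 22 MAP kinase and SRF pathway genes had higher and 0 had lower values at an unadjusted p under 0.05 (all genes, 25.6% and 2.9%), with 0 called by limma. ELK3, an SRF partner at CArG boxes, measured 24.7 ± 2.46 and 35.2 ± 2.56 TPM (SD, n = 3, log2 0.50, limma adjusted p = 0.077). RPS6KA3, which encodes a kinase activated by ERK, differed by 0.47. Among 14 feedback inhibitors, 6 had higher and 1 had lower values at an unadjusted p under 0.05 (all genes, 25.6% and 2.9%), again with 0 called. NAB1, a corepressor of EGR proteins, and DUSP6, the ERK phosphatase, differed by 0.47 and 0.30, and DUSP2 by -0.33.

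Downstream, 5 of 17 AP-1 target genes tested had higher and 1 had lower values at an unadjusted p under 0.05 (all genes, 25.6% and 2.9%), and 0 were called. CCND1, which encodes cyclin D1, measured 759 ± 55.0 and 951 ± 32.5 TPM (SD, n = 3, log2 0.33, limma adjusted p = 0.082), and ITGA2, an integrin gene, differed by 0.49. Another 11 targets, MMP1, PTGS2 and IL6 among them, were below the filter. A decay factor list held 16 genes for the binding or decay of AU-rich RNAs. Of these, 10 had higher and 0 had lower values at an unadjusted p under 0.05 (all genes, 25.6% and 2.9%), with 0 called. Not all genes of this list promote decay, and the paper describes PABPC1, among the higher ones, as able to protect RNAs. TIA1 measured 11.2 ± 0.362 and 16.0 ± 0.501 TPM (SD, n = 3, log2 0.47, limma adjusted p = 0.077), and PARN and CNOT1 differed by 0.38 and 0.58. With a filter of at least 5 TPM, limma called 474 of all 9973 genes then tested. Among them were ELK3, and TIA1, CNOT1 and PARN of the decay factor list, and still none of the 9 members.

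The list medians were 0.15 for the zipper factors, 0.09 for the immediate-early genes and 0.17 for the MAP kinase and SRF genes. They were 0.22 for the feedback inhibitors, 0.22 for the targets and 0.23 for the decay factor list, beside 0.11 for all genes. Without Clover replicate 2 they were 0.12, 0.05, 0.07, 0.11, 0.16 and 0.17 in the same order, beside 0.07 for all genes. After median centring they were -0.01, -0.08, 0.0022, 0.05, 0.06 and 0.06, beside -0.06 for all genes. Counts at an unadjusted p under 0.05 depended on the scaling. After median centring, 1357 of all 13300 genes were higher and 2460 lower. The MAP kinase and SRF list then had 3 higher and 7 lower genes of 22. The immediate-early list had 2 and 3 of 26, and the decay factor list 4 and 1 of 16. After quantile normalization, 1708 of all 13300 genes were higher and 1448 lower. The same lists then had 5 and 1, 3 and 2 and 6 and 0. The zipper factors, feedback inhibitors and targets had 1 higher and 1 lower gene each after median centring. Median centring moved the log2 change of every gene by the same amount. That amount was smaller than the changes of the genes named from these lists, so their direction could not change. ATF1 (0.14), NFIL3 (0.11), BHLHE40 (0.12), DUSP6 (0.13) and CCND1 (0.16) were then no longer at an unadjusted p under 0.05. Heat shock genes, a sign of stress, had a median of -0.03 over 10 genes. At an unadjusted p under 0.05, 1 was higher and 2 were lower (all genes, 25.6% and 2.9%). After median centring the heat shock median was -0.20, with 1 higher and 4 lower, beside 1357 and 2460 of all 13300 genes. HSPD1 differed by 0.39, and HSPA1A and HSPA1B, paralogs so alike that counting may split their reads, by -0.47 and -0.45. Clover replicate 3 was the highest library for HSPA1A and HSPA1B, at 215 and 218 TPM. Of 9 epithelial markers tested, EPCAM alone passed an unadjusted p of 0.05 (log2 0.22), where 25.6% of all genes were higher. After median centring it did not (log2 0.05). Of the markers, 0 were then higher and 1 lower, beside 1357 and 2460 of all 13300 genes.

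**Figure D4:**
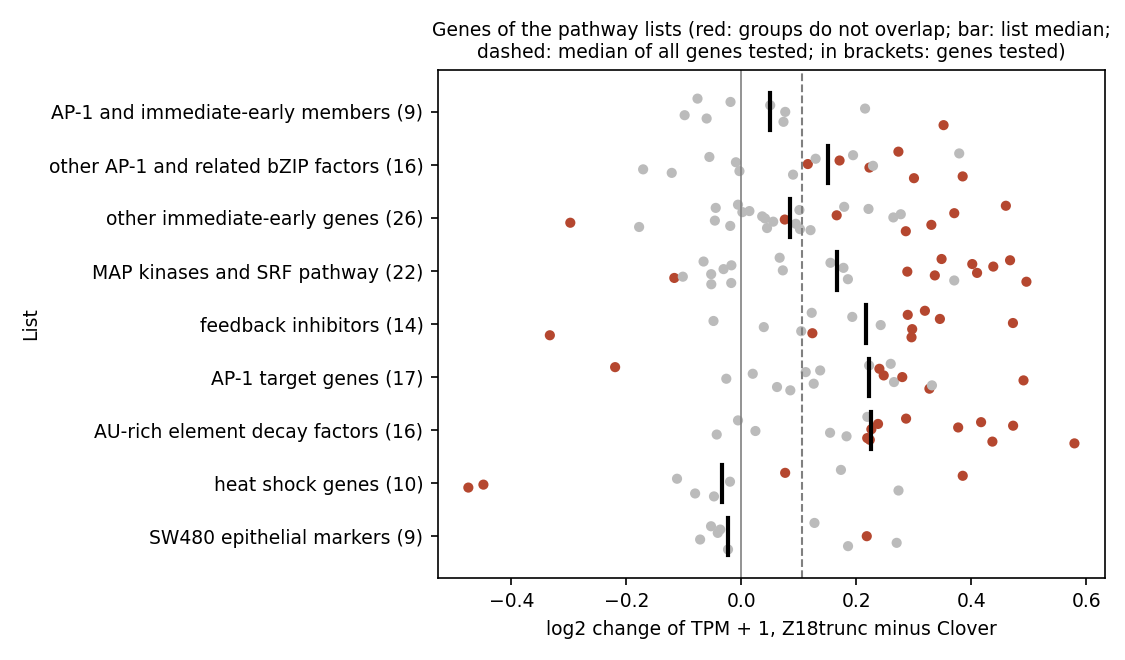
Log2 change of TPM + 1 in Z18trunc minus Clover for the genes of 9 lists, with a black bar at each list's median, a dashed line at the median of all genes tested (0.11) and red points where the groups do not overlap. The median of the members is 0.05, that of the decay factor list 0.23 and that of the targets 0.22. The points of the lists overlap, and no gene of these lists was called.

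Reads on transposable elements (TE) inside the genes gave a second readout of RNA from the same places. FOS, JUN, JUNB, JUND and EGR1 had no TE locus with counts, and 51 loci lay in the other 4. Over all 51 loci the level was 41.2, 41.5 and 35.4 CPM (fragments per 1000000 aligned) in Clover and 34.2, 37.7 and 36.7 CPM in Z18trunc. These overlapped, and the log2 ratio was -0.12 (exact two-sided permutation p = 0.3, with 0.1 the smallest that 3 against 3 libraries allows). Scaled to the sum of all TE counts instead, the log2 ratio was -0.24 (exact two-sided permutation p = 0.1). All Z18trunc libraries then lay below all Clover libraries. The sum of all TE counts was 57830 to 60806 CPM in Clover and 60409 to 68877 CPM in Z18trunc.

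FOSL1 held 86.8% of these fragments over 20 loci, 19 of them outside the exons of its MANE Select transcript, and 99.7% of them on the strand of the gene. An AluJb element at chr11:65898685-65898990 had the most, with 59 to 78 counts per library. FOSL1 TE fragments measured 34.5 ± 3.55 CPM in Clover and 31.1 ± 2.35 CPM in Z18trunc (SD, n = 3, exact two-sided permutation p = 0.3), which overlapped. FOSL2 measured 0.80, 0.63 and 0.92 CPM in Clover, all below the Z18trunc libraries, which averaged 1.13 ± 0.167 CPM (SD, n = 3) (exact two-sided permutation p = 0.1), though it rested on 12 to 24 counts per library. ATF3 TE fragments measured 1.18 ± 0.358 and 1.70 ± 0.510 CPM (SD, n = 3, exact two-sided permutation p = 0.2) and those of FOSB 2.90 ± 0.447 and 2.29 ± 0.750 CPM (SD, n = 3, exact two-sided permutation p = 0.4), and both overlapped.

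**Figure D5:**
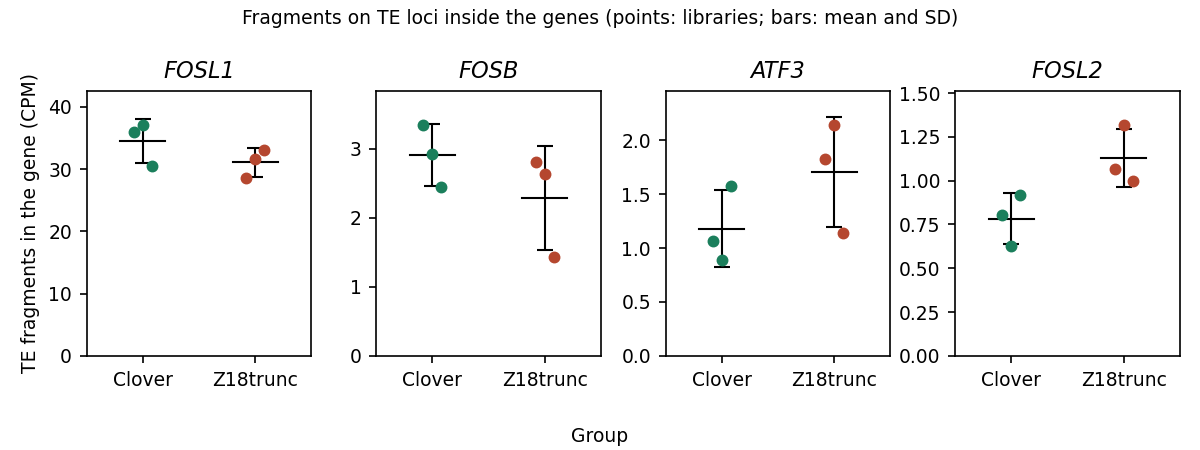
CPM of fragments on TE loci inside FOSL1, FOSB, ATF3 and FOSL2, each axis from 0, for 3 Clover (green) and 3 Z18trunc (red) libraries with the mean and SD. FOSL2 alone has no overlap between groups, at 12 to 24 counts per library.

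For each member the gene whose log2(TPM + 1) followed it most closely over the 6 libraries is given as a description, since 6 libraries that share depth and scaling leave many such genes. FOS went with HLA-E (Pearson r = 0.995), FOSB with MSRA (0.993), FOSL1 with BEX4 (0.998), FOSL2 with RERE (0.996), JUN with LOC283922 (0.996), JUNB with C17orf49 (0.986), JUND with MAN2B1 (0.997), ATF3 with SNORA75 (0.999) and EGR1 with SCML2 (0.992). Between 38 (JUNB) and 785 (FOSL2) of 13291 genes had an r over 0.9 with a member. Mean TPM was low for SNORA75 (2.51), SCML2 (2.42), BEX4 (3.29) and LOC283922 (4.30), and at least 20.4 for the other genes that followed a member most closely.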

How the data were processed

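Polyadenylated RNA was sequenced from 3 Clover and 3 Z18trunc lines of SW480. Titles gave the group and replicate number, and each library was treated as a replicate. The authors made stranded libraries, trimmed reads (cutadapt 4.6, per the submitters' notes) and mapped them to hg38. The gene tables deposited by the authors resemble StringTie output and hold TPM and coverage signal, without read counts, and the sources used here do not say which program version made these tables. TPM was summed by symbol. Coverage was used only to describe read depth. The deposited TE tables, made by the authors with SQuIRE, list uniquely mapped counts per locus and estimated counts in which multiply mapped fragments were shared among loci. Estimated counts inside the gene spans were divided by aligned fragments and multiplied by 1000000 (CPM), and a locus with 0 counts may have up to 3, which is 0.134 to 0.165 CPM. This limit covers counting error only, since there are no molecular identifiers.

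The 13300 genes whose mean TPM reached 1 entered a limma 3.58.1 fit (R 4.3.3) of log2(TPM + 1) without covariates, with Benjamini-Hochberg adjustment across these genes. This scale understates the change of low genes. For TE levels an exact two-sided permutation test was used (scipy 1.17.1). The fit was tested on simulated data with changes larger than those of the members and no shift common to all genes. That test does not cover changes of the members' size. P-values and 95% intervals measure the spread between these libraries, from lines that the study made in biological triplicate. In limma the spread of a gene is drawn towards that of all genes tested, so an interval does not rest on the gene's own spread alone. Named genes of other lists were the up to 3 with the smallest unadjusted p, a mean of at least 5 TPM and no overlap between groups, and the most similar gene was that with the highest Pearson r. Some genes that this rule names are not reported here. Members, lists and rules were chosen with earlier results of these data known. Alternatives were quantile normalization, median centring, a pseudocount of 0.1, other filters, an intensity trend, a replicate block and leaving out each library, and for TE other scalings, unique counts and strand. Columns of FPKM were not used.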

Additional observations from a re-analysis of the deposited data

How the results depend on the processing

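No member was called in any of the 13 limma alternatives, whose lowest adjusted p for a member was 0.11. Of 117 member values 8 changed sign, none of FOSB, FOSL2, JUND or ATF3. The other filters, the intensity trend and the replicate block leave a member's log2 change as it is. Signs could therefore change only under the remaining alternatives. Median centring gave -0.088 for FOSL1, -0.11 for JUN and -0.091 for EGR1. Leaving out Clover replicate 2 gave -0.039 for JUN, 0.00028 for JUNB and -0.011 for EGR1, leaving out Clover replicate 1 gave 0.0046 for FOS, and leaving out Z18trunc replicate 3 gave 0.0065 for FOS. Leaving out each library in turn, FOS ranged from -0.12 to 0.0065, JUN from -0.039 to 0.11, JUNB from -0.048 to 0.00028 and EGR1 from -0.011 to 0.15. The count of all genes called was 2 and became 1 after quantile normalization, with a pseudocount of 0.1 or with no filter, 474 (453 higher, 21 lower) with a filter of at least 5 TPM, 60 (56 higher, 4 lower) with an intensity trend, and 1 to 4 when 1 library was left out. With the filter of at least 5 TPM, which 9973 genes passed, the MAP kinase and SRF list had 1 call and the decay factor list 3. The cause was not tested. With the replicate number as a block, 1 gene was called in place of 2, and no member call changed, though ATF3 was then at an unadjusted limma p of 0.068. Same-numbered libraries did not deviate together (correlations -0.04, 0.02 and -0.04), and those with different numbers gave -0.01 to 0.05. The titles do not say whether the numbers pair the samples. These values cannot decide it, since libraries prepared together need not deviate together. The TE ratio lay between -0.24 and -0.08 over its alternatives. The value of -0.24 came from scaling to the sum of all TE counts (exact two-sided permutation p = 0.1), where the groups did not overlap.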
